A study of Mus musculus with 21 samples.

Results

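The 36 genes described here belong to the unfolded protein response and to the set of genes switched on by the transcription factor ATF4. They were taken by symbol from a table of transcript abundances, and the abundances of all transcripts of a gene were added, which gave 36 of the 23569 genes in the table. Of the 36, 35 carry their symbol in the table, and Mthfd2 was found through its transcript identifiers in the GENCODE annotation. They fall into 13 chaperones and folding enzymes of the endoplasmic reticulum (ER), 3 genes of ER-associated degradation, 4 stress sensors and their factors, 8 stress response genes around ATF4 and CHOP, and 8 amino acid genes that ATF4 drives.

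The unfolded protein response adjusts the folding capacity of the ER to its load of proteins. Sensors in the ER membrane start it: IRE1 (Ern1), which splices Xbp1 mRNA, ATF6, which is cut to release a transcription factor, and PERK (Eif2ak3), which phosphorylates the translation factor eIF2alpha. Chaperone genes are the classical targets of ATF6 and XBP1. Phosphorylated eIF2alpha lowers translation in general but lets ATF4 be translated, and other kinases, such as GCN2 during amino acid shortage, feed into the same step, so that ATF4 genes can move without an ER signal. In macrophages, ligands of Toll-like receptors such as LPS are known to engage parts of both arms.

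Every library is RNA from CD11b+ cells of the peritoneal cavity of C57BL/6 mice, selected from lavage without an eliciting agent and plated overnight. With LPS (lipopolysaccharide, the TLR4 ligand, 100 ng/mL for 6 h) there are 7 libraries, with CpG (a TLR9 ligand, 1 µM for 6 h) 7, and without stimulus 7. Within each stimulus the 7 libraries are Lum-/- cells without and with recombinant lumican, Bgn-/- cells without and with recombinant biglycan, and WT cells without protein, with lumican and with biglycan. Lumican and biglycan are small proteoglycans of the extracellular matrix, given at 10 µg/mL for 1 h before the stimulus; for the libraries with protein alone the labels give neither dose nor time. The protocol states 10 mice and does not say how they were divided, and each group has 1 library, so the 7 matched combinations are the only repeats of a stimulus. P-values for a stimulus therefore measure how much its difference varied between combinations of genotype and protein. Those for a genotype or a protein measure the spread left among the stimulated libraries after treatment and genotype are fitted. Neither measures the spread between repeated preparations, and a genotype and the preparation of its cells cannot be told apart.

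Values are TPM (transcripts per 1e6 transcripts), which are scaled to length, so that levels can be compared between genes. Estimated from the steps between low values, the depth in reads ×1e6 was 2.31 for untreated Lum-/- cells and 2.41 for Bgn-/- cells given biglycan alone, and 12.6 to 21.1 for the other 19 libraries. These 2 libraries carry different labels but differed by less than sampling noise (0.192 of the spread that counting gives over 521 genes, where the other 209 pairs were at 1.98 or more). By the same measure they were nearer to the other unstimulated libraries (2.94 to 3.73) than to untreated WT (4.74 and 4.34). In the levels of many members, given below, they stood apart together with untreated WT. This was not particular to the members. Of all genes tested, 11.1% lay above the other 4 unstimulated libraries in all 3, and 9.59% lay below. The labelled knockouts did not lack their gene: Lum was at 0.823 to 14.1 TPM in the libraries labelled Lum-/- and at 0 to 1.4 TPM in WT, and Bgn at 0 to 3.49 TPM in those labelled Bgn-/- and at 0.327 to 1.52 TPM in WT. The macrophage genes Adgre1, Itgam and Csf1r were present throughout, and the 5 neutrophil genes summed to 222 to 422 TPM, of which S100a8 and Mmp8 made up most while Ly6g and S100a9 were at 0 in most libraries. Mast cell genes summed to 3.45 TPM in untreated WT and to 64.6 to 115 TPM in every other WT library. In these genes untreated WT thus did not match the LPS and CpG libraries of its block. The part of this in the stimulus differences was not tested. In such mixed RNA, fewer cells of a type and less RNA per cell cannot be told apart.

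Known regulatory letters sit in front of several of these genes, and they are shown for the members that hold them, to set beside the values that follow. RefSeq windows from 250 bases before to 50 after the start site (GRCm38.p6) matched 32 of the 36 genes. The ER stress response element of ATF6 and its partner NF-Y, searched as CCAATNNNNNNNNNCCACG on both strands, was found in 6 of 11 chaperone genes with a window (54.5%), in none of the other 21, and in 37 of 27025 genes in all (0.137%). The 6 stretches follow 5′ to 3′ on the gene's strand, with the element in capitals, which in Calr, in Creld2 and at the second place in Hsp90b1 lies on the other strand.

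Hspa5 (chr2:34772005-34772063, + strand): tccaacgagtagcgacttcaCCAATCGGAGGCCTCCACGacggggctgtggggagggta

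Hsp90b1 (chr10:86705513-86705676, - strand): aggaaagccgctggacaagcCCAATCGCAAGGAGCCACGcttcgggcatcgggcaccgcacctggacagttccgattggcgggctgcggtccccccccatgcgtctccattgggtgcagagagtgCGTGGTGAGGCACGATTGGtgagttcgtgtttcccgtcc

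Calr (chr8:84847055-84847113, - strand): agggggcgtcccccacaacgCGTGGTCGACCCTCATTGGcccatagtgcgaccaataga

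Pdia6 (chr12:17266471-17266529, + strand): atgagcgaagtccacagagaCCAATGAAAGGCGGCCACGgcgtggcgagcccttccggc

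Dnajc3 (chr14:118937807-118937865, + strand): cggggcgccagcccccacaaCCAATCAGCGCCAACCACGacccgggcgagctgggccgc

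Creld2 (chr15:88819500-88819558, + strand): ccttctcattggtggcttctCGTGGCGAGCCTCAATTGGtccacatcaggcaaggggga

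The C/EBP-ATF element that ATF4 binds, searched as TGATGNAA on both strands, was found in none of the 11 chaperone genes, in 3 of 8 stress response genes (37.5%), in 2 of 7 amino acid genes (28.6%) and in Herpud1, against 1219 of 27025 genes (4.51%). The stretches before the start site are shown with the element in capitals, which lies on the other strand except in Asns; matches after the start site, in Trib3 and a further one in Aars, are not shown.

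Chac1 (chr2:119351029-119351076, + strand): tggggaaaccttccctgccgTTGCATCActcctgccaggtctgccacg

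Nupr1 (chr7:126625553-126625600, - strand): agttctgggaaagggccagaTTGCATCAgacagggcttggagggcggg

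Asns (chr6:7693210-7693252, - strand): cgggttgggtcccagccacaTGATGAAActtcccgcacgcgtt

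Aars (chr8:111033710-111033757, + strand): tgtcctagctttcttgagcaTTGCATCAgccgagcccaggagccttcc

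Herpud1 (chr8:94386297-94386344, + strand): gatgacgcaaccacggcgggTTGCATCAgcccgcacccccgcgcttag

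These letters are a description of the windows and do not show that a factor was bound.

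With LPS, ATF4 and all 8 amino acid genes rose, the ER chaperones split, and the sensors other than Xbp1 fell in TPM. Of the 36 members, 23 were higher and 10 lower with LPS than without stimulus by limma's moderated test on log2(TPM + 1), at an adjusted p under 0.05 over 11773 genes with the 7 combinations as a block. The background was uneven, because 14.1% of all genes tested were called higher and 72.3% lower, and the median gene stood at -0.72 on the log2 scale, against 0.45 for the median member. After median-of-ratios scaling, which sets the typical gene near 0, 34 members were higher and 0 lower, against 39.9% and 38.3% of all genes. A fall in TPM with LPS that is smaller than this shift therefore turns into a rise after scaling, and such genes are named below. Without the 2 libraries that agree within sampling noise, 22 members were higher and 9 lower, against 14.4% and 72.2% of genes.

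With CpG, 19 members were higher and 0 lower than without stimulus (limma, adjusted p under 0.05), against 15.1% and 22.6% of all genes. The median member stood at 0.30 and the median gene at -0.05. Scaling changed little here, with 20 members higher and 0 lower against 19.1% and 18.1% of genes. Leaving out the 2 libraries gave 22 higher and 0 lower, against 15.2% and 19.9%. Between the ligands, 19 members were higher and 12 lower with LPS than with CpG, against 11.6% and 74.1% of genes, and after scaling 29 were higher and 0 lower, against 37.1% and 37.7%. The 3 stimulus comparisons share libraries, so their counts are not independent.

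**Figure D1:**
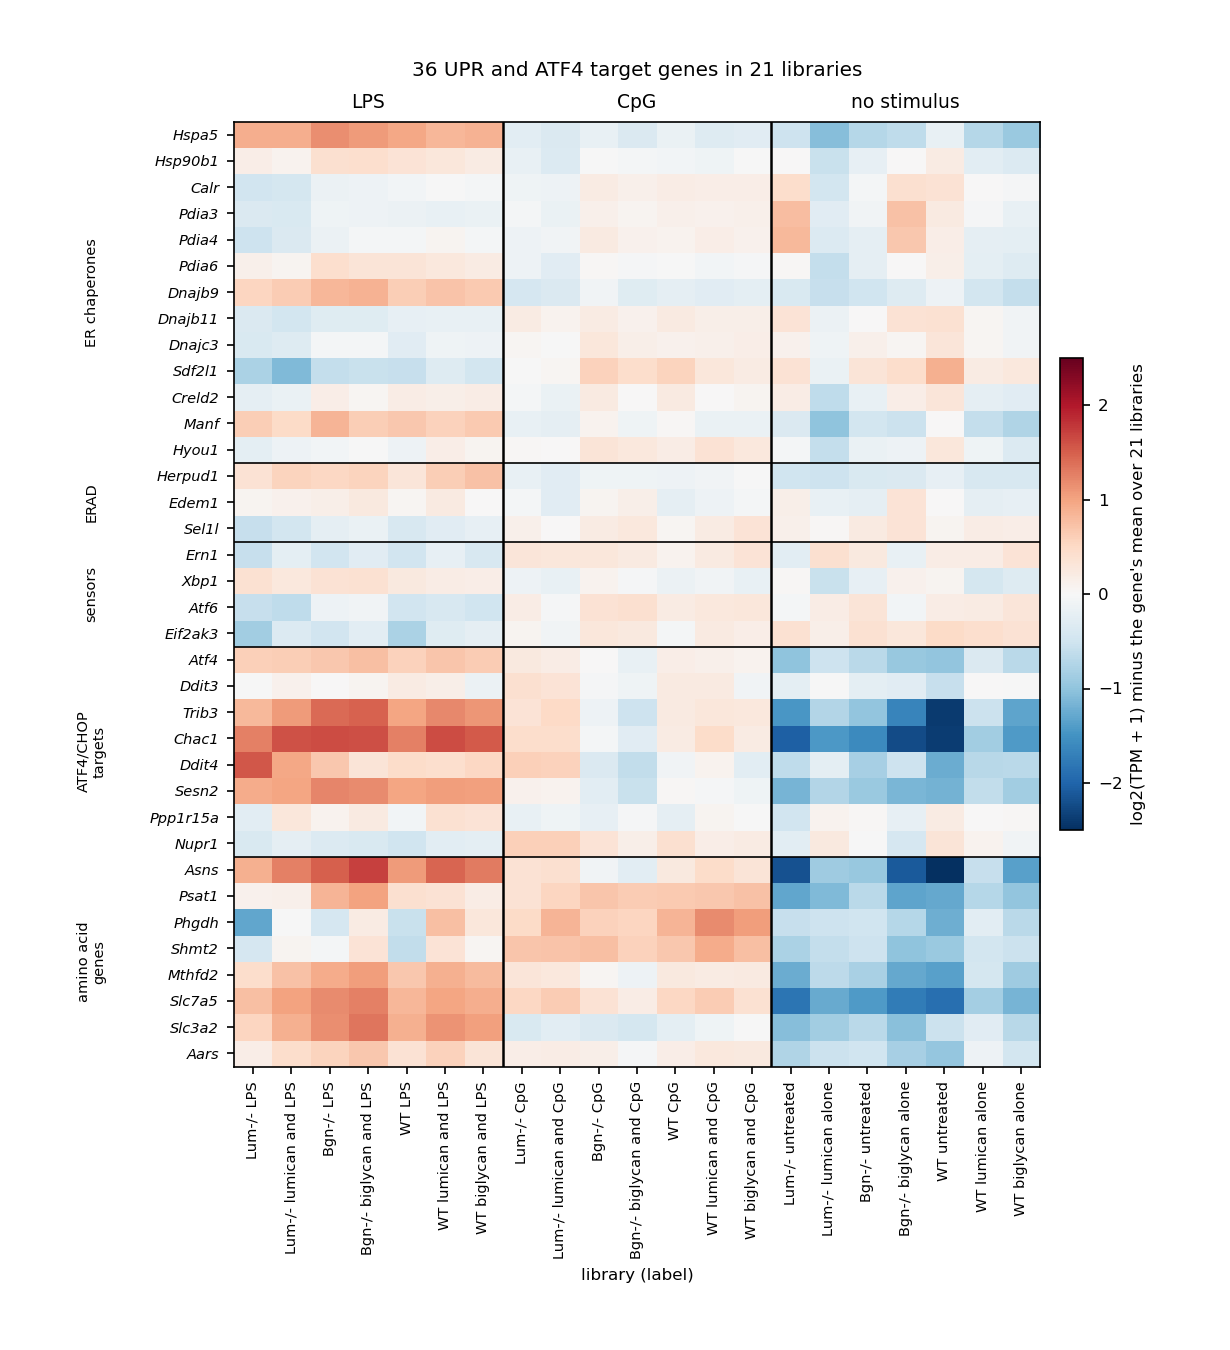
Each row is a member and each column a library, in the order LPS, CpG and no stimulus. The colour is log2(TPM + 1) minus the gene's mean over the 21 libraries, from blue (below) to red (above). Hspa5, Chac1, Asns and Slc7a5 are red in all 7 LPS columns, and the unstimulated columns of untreated Lum-/-, biglycan-alone Bgn-/- and untreated WT are lowest for Asns (10.5 to 15.4 TPM) and highest for Calr (1103 to 1169 TPM).

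The ER chaperones did not move as a block with LPS, since 5 of 13 rose, 5 fell in TPM and 3 did not pass. Their median log2 difference was 0.10 in TPM and 0.93 after scaling, when 12 were higher. Hspa5 encodes BiP, the main ER chaperone, which also holds the sensors inactive. Its lowest, median and highest levels were 1476, 1542 and 1842 TPM with LPS, 640.3, 675 and 731 TPM with CpG, and 395, 505 and 725 TPM without stimulus. All 7 LPS libraries lay above every other library, and the CpG and unstimulated libraries overlapped only through untreated WT. The log2 difference was 1.64 ± 0.08 (SE) with LPS (limma adjusted p = 1.63e-11) and 0.40 ± 0.08 with CpG (adjusted p = 0.00129), and it was positive in 7 of 7 combinations for each.

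Manf, a secreted ER stress protein, and Dnajb9, a co-chaperone of BiP, were the other chaperone-class genes with a large rise after LPS. Manf stood at 355, 392 and 458 TPM with LPS, at 219, 227 and 273 TPM with CpG and at 127, 175 and 256 TPM without stimulus (lowest, median and highest of 7). It differed by 1.165 ± 0.08 with LPS and by 0.43 ± 0.08 with CpG, and both passed. Dnajb9 stood at 75.0, 80.6 and 94.6 TPM with LPS, at 37.9, 41.9 and 47.9 TPM with CpG and at 33.5, 36.7 and 46.6 TPM without stimulus. Its LPS libraries all lay above the rest, with a difference of 1.12 ± 0.07, whereas with CpG it stood at 0.145 ± 0.07 and did not pass (limma adjusted p = 0.0983); after scaling it was called, at 0.198 (adjusted p = 0.0215).

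Hsp90b1 (the ER form of HSP90, also called GRP94) and Pdia6 (a protein disulfide isomerase) rose less with LPS, by 0.44 ± 0.07 and 0.42 ± 0.07. Their levels overlapped between LPS and no stimulus, as Hsp90b1 ranged from 560 to 704 TPM with LPS and from 357 to 605 TPM without, but both were higher in 7 of 7 combinations. Neither passed with CpG in the fit of all 21 libraries.

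The 5 chaperone genes with a fall in TPM after LPS were Calr, Pdia3, Dnajb11, Dnajc3 and Sdf2l1, and for the first 4 the sign turned after scaling. In cells without added protein Pdia3 did not pass (-0.503, limma adjusted p = 0.0505). Calr encodes calreticulin, a lectin chaperone that holds calcium. It stood at 617, 791 and 852 TPM with LPS, at 781, 967 and 995 TPM with CpG and at 623, 870 and 1169 TPM without stimulus. These ranges overlap, and the LPS difference was -0.29 ± 0.10 in TPM (limma adjusted p = 0.013) and 0.56 after scaling; without the 2 shallow libraries it was -0.12 and did not pass (adjusted p = 0.0889). Sdf2l1, a partner of ER J-domain proteins, was the exception: it stood at 34.0, 49.3 and 59.0 TPM with LPS and at 65.9, 93.1 and 138 TPM without stimulus, with no overlap. Its difference was -0.96 ± 0.09 in TPM, and after scaling it was -0.13 and did not pass, so that its fall was close to that of the median gene.

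The 6 holders of the ER stress element moved in different directions. Hspa5, Hsp90b1 and Pdia6 rose with LPS, Calr and Dnajc3 fell in TPM but rose after scaling, and Creld2, a folding factor, stood at 0.15 ± 0.10 and did not pass in TPM but did after scaling. Pdia4, another disulfide isomerase, stood at -0.24 ± 0.16, and Hyou1, a nucleotide exchange factor for BiP, at 0.10 ± 0.09; neither passed with LPS in TPM. Hyou1 did rise with CpG, by 0.36 ± 0.09, and with Hspa5 and Manf it makes up the 3 chaperone genes called with CpG in TPM.

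The unstimulated chaperone levels depended on which libraries were used. In untreated Lum-/-, biglycan-alone Bgn-/- and untreated WT, 10 of 13 chaperone genes lay above all 4 of the other unstimulated libraries, and 0 lay below, against 11.1% and 9.59% of all genes. This split was made with the values known, and the first 2 libraries differed by less than sampling noise. The counts therefore describe the split and are no test of it. Calr was at 1103 to 1169 TPM in these 3 libraries and at 623 to 870 TPM in the other 4. The summed level of 7 plasma cell genes, a cell type rich in ER, was 842 and 777 TPM in the first 2 of them and 420 TPM in untreated WT, against 482 to 642 TPM in the other 4. Most of that sum was Igkc, which B cells also express, while Jchain was at most 6.37 TPM and Tnfrsf17 at most 0.121 TPM. The B cell sum was 883 and 818 TPM in the first 2 and 382 TPM in untreated WT, against 486 to 584 TPM in the other 4, and the first 2 were the shallow libraries; the part of either in the chaperone levels was not tested. Without the 3 libraries, 12 of 13 chaperone genes and 28 of 36 members were called higher with CpG, against 16.2% of all genes; leaving out the highest unstimulated levels raises these differences by construction, and nothing is read from the count. In cells without added protein, where 2 of the 3 untreated libraries are among those that stand apart, 0 of 13 chaperone genes were called with CpG (limma; 1 at an unadjusted p under 0.05), 14 of 36 members were, and 7.1% of all genes were called higher. Hspa5 then stood at 0.261 with CpG (limma adjusted p = 0.16), Manf at 0.258 (adjusted p = 0.113) and Hyou1 at 0.148 (adjusted p = 0.368).

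Of the 3 ER-associated degradation genes, which take misfolded proteins out of the ER, Herpud1 rose with both ligands. It stood at 99.8, 118 and 134 TPM with LPS, at 66.1, 74.1 and 80.3 TPM with CpG and at 55.8, 60.9 and 69.9 TPM without stimulus. The LPS libraries lay above all others, with differences of 0.91 ± 0.06 (LPS) and 0.26 ± 0.06 (CpG; limma adjusted p = 0.00287); without added protein the CpG difference was 0.215 and did not pass (adjusted p = 0.0644). Edem1, a lectin that extracts misfolded glycoproteins, was higher with LPS by 0.17 ± 0.07, a call that was lost when any of 7 libraries was left out and in cells without added protein (0.115, limma adjusted p = 0.397). Sel1l, the adaptor of the HRD1 ubiquitin ligase, stood at 32.3 to 43.2 TPM with LPS and at 49.8 to 62.5 TPM without stimulus, with no overlap. Its log2 difference was -0.495 ± 0.05 in TPM but 0.33 after scaling.

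Among the sensors, Xbp1 stood apart from the other 3. It had 183, 198 and 215 TPM with LPS, 144, 149.5 and 174 TPM with CpG and 111, 141 and 176 TPM without stimulus. The LPS libraries lay above all others, the difference was 0.473 ± 0.075 with LPS (limma adjusted p = 1.89e-05), and it was 0.091 ± 0.075 with CpG and did not pass. The annotation holds 4 Xbp1 transcript models whose shortest intron has 300 bases, so the short excision made by IRE1 has no model of its own and spliced Xbp1 was not analysed here. Ern1, Atf6 and Eif2ak3, the sensors themselves, stood at -0.51 ± 0.09, -0.55 ± 0.08 and -0.82 ± 0.09 with LPS in TPM, and all 3 were called lower. After scaling, Ern1 and Atf6 were at 0.29 and 0.24 and called higher, and Eif2ak3 was at -0.05. None of the 4 passed with CpG.

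**Figure D2:**
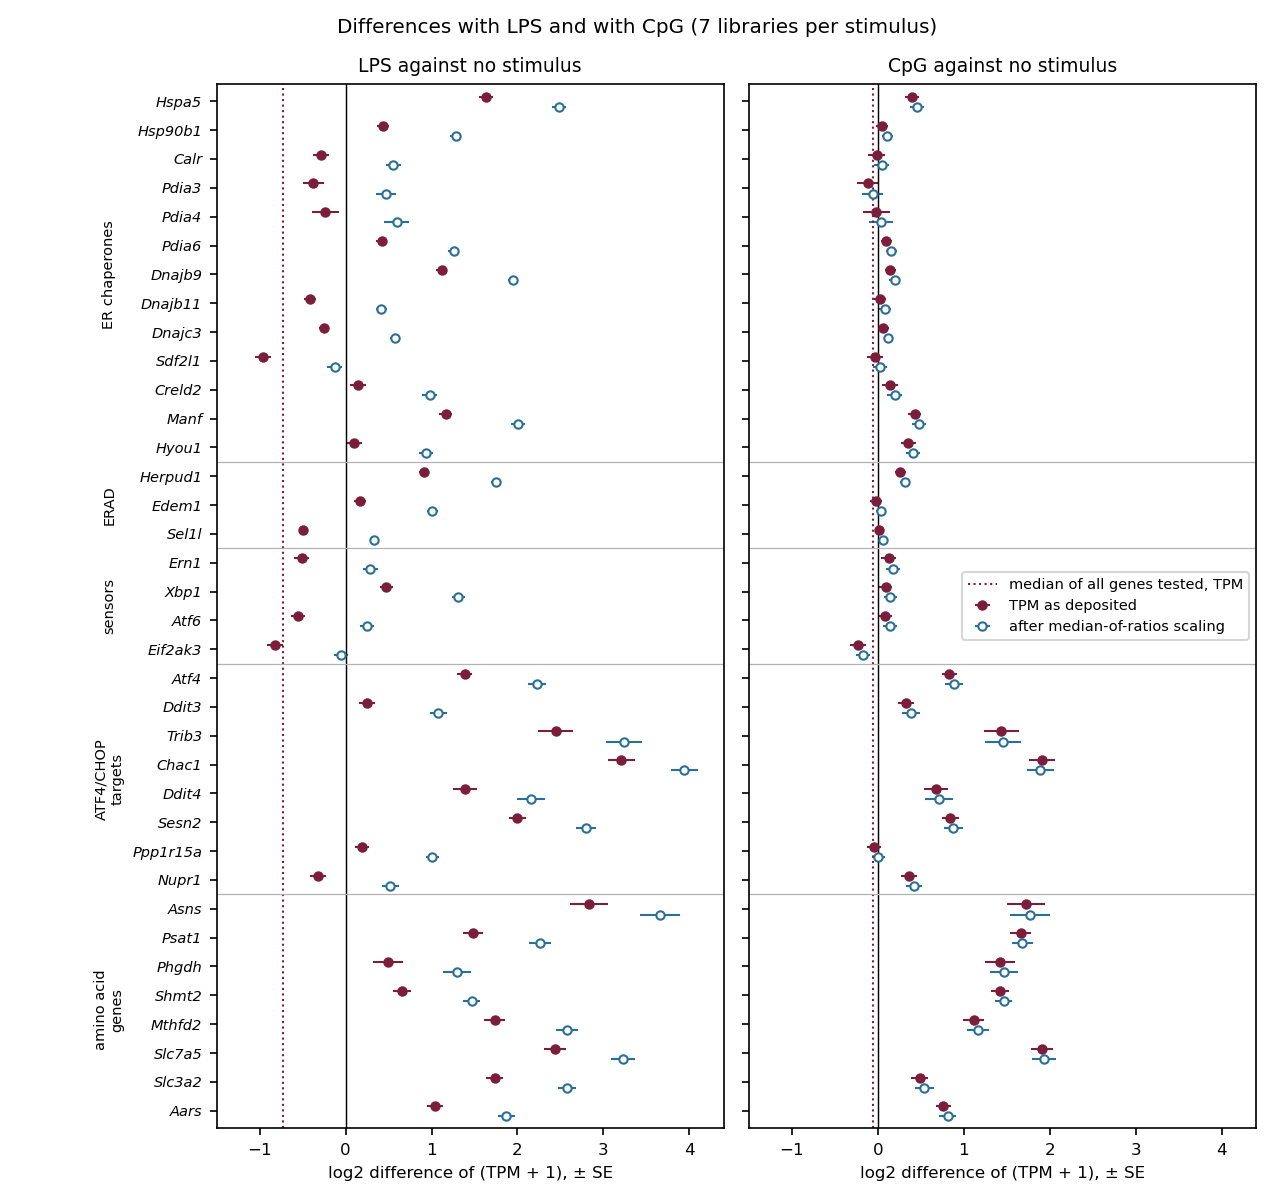
Log2 differences of (TPM + 1) with their standard errors for LPS against no stimulus (left) and CpG against no stimulus (right), from 7 matched combinations. Filled points are TPM as deposited, open points are after median-of-ratios scaling, and the dotted line is the median of all genes tested, at -0.72 for LPS and -0.05 for CpG. Scaling moves every LPS value to the right, across 0 for Calr, Pdia3, Pdia4, Dnajb11, Dnajc3, Sel1l, Ern1, Atf6 and Nupr1, and hardly moves the CpG values.

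Atf4 mRNA and most of its stress targets rose with both ligands and further with LPS. Atf4 stood at 503, 525 and 574 TPM with LPS, at 299, 369 and 403 TPM with CpG and at 169, 211 and 264 TPM without stimulus, so that the 3 stimuli did not overlap. The difference was 1.39 ± 0.09 with LPS, 0.83 ± 0.09 with CpG and 0.56 ± 0.09 between LPS and CpG, with limma adjusted p-values of 2.52e-10, 4.29e-06 and 1.59e-05. Chac1, which breaks down glutathione, had the largest LPS difference of the 36. It stood at 27.3, 34.6 and 35.8 TPM with LPS, at 8.72, 12.7 and 15.2 TPM with CpG and at 1.27, 2.92 and 5.50 TPM without stimulus, with no overlap, and differed by 3.21 ± 0.15 with LPS and by 1.91 ± 0.15 with CpG. In the 3 unstimulated libraries that stand apart, 4 of 8 stress response genes lay below the other 4 libraries and 0 above. These were Atf4, Trib3, Chac1 and Sesn2, with Chac1 at 1.27 to 1.85 TPM against 2.92 to 5.50 TPM. This count has the same limit as that of the chaperone genes. Without the 3 libraries, Chac1 differed by 2.90 with LPS and by 1.60 with CpG, and Atf4 by 1.215 and 0.66.

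Trib3, a pseudokinase that restrains ATF4 and AKT signalling, and Sesn2, a leucine sensor that inhibits mTORC1, followed the same order. Trib3 stood at 36.8 to 58.4 TPM with LPS, at 14.1 to 29.4 TPM with CpG and at 3.10 to 13.9 TPM without stimulus, and differed by 2.45 ± 0.20 with LPS and by 1.435 ± 0.20 with CpG. Sesn2 stood at 32.7 to 40.7 TPM with LPS, at 11.1 to 18.1 TPM with CpG and at 6.79 to 10.6 TPM without stimulus, and differed by 2.00 ± 0.10 with LPS and by 0.845 ± 0.10 with CpG. Neither gene overlapped between any pair of stimuli.

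Ddit4 (REDD1), another inhibitor of mTORC1, rose by 1.39 ± 0.14 with LPS and by 0.68 ± 0.14 with CpG. It ranged from 11.8 to 29.0 TPM with LPS and from 3.37 to 7.61 TPM without stimulus, and the highest value belonged to the LPS library labelled Lum-/-.

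Ddit3, which encodes the pro-apoptotic factor CHOP, moved little in comparison. It stood at 47.8, 56.0 and 61.6 TPM with LPS, at 49.2, 62.3 and 70.5 TPM with CpG and at 35.5, 44.6 and 53.4 TPM without stimulus, and all ranges overlapped. The differences were 0.25 ± 0.09 with LPS (limma adjusted p = 0.0189) and 0.33 ± 0.09 with CpG (adjusted p = 0.0109); the LPS call was lost without untreated WT or without WT with LPS, and without the 2 libraries (adjusted p = 0.0633). Ppp1r15a (GADD34), the phosphatase subunit that reverses eIF2alpha phosphorylation, was at 0.19 ± 0.08 with LPS, a call lost when any of 9 libraries was left out and in cells without added protein (-0.001), and at -0.05 ± 0.08 with CpG. After scaling both genes were called higher with LPS, at 1.08 and 1.01.

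Nupr1, a small stress-induced chromatin protein, moved in opposite directions in TPM. It stood at 116, 129 and 141 TPM with LPS, at 182, 208 and 249 TPM with CpG and at 122, 163 and 205 TPM without stimulus. The difference was -0.32 ± 0.09 with LPS and 0.37 ± 0.09 with CpG, and both passed in TPM. After scaling LPS was at 0.52 and CpG at 0.42, and LPS against CpG, at -0.69 ± 0.09 in TPM, was at 0.10 and did not pass.

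**Figure D3:**
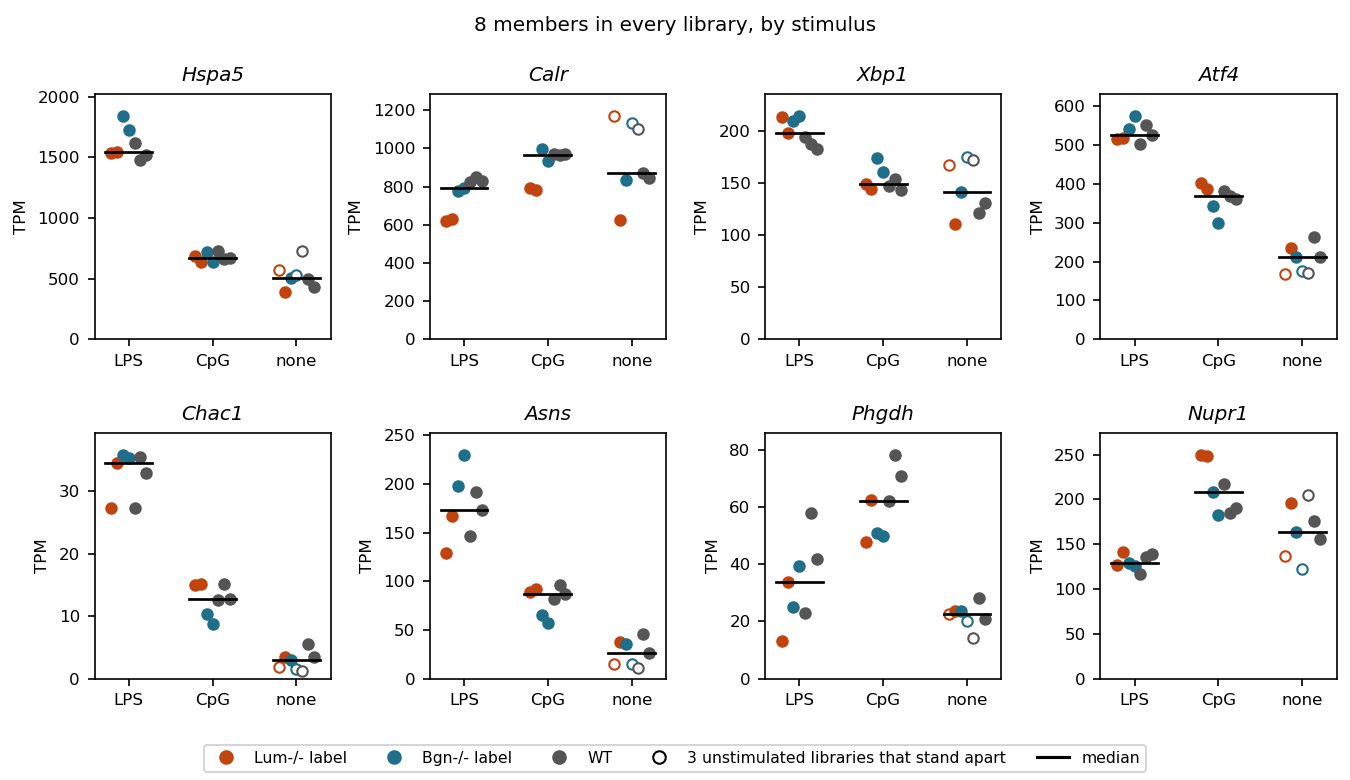
TPM of 8 members in every library, with LPS, CpG and no stimulus from left to right. Colours give the genotype label and bars the median of 7. Open circles mark untreated Lum-/-, biglycan-alone Bgn-/- and untreated WT. Hspa5, Atf4, Chac1 and Asns are highest with LPS, Phgdh and Nupr1 are highest in TPM with CpG, and the open circles are high for Calr and low for Asns.

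All 8 amino acid genes rose with LPS and all 8 rose with CpG, in TPM and after scaling alike, and also without the 2 or the 3 libraries. In cells without added protein, 7 of 8 were called with LPS and 7 of 8 with CpG, where 11.8% and 7.1% of all genes were called higher. Phgdh with LPS then stood at 0.004 (limma adjusted p = 0.989) and Slc3a2 with CpG at 0.435 (adjusted p = 0.0529). Their median difference was 1.61 with LPS and 1.42 with CpG. Asns, asparagine synthetase, stood at 129, 173 and 230 TPM with LPS, at 57.4, 87.2 and 96.0 TPM with CpG and at 10.5, 26.5 and 46.2 TPM without stimulus, with no overlap. It differed by 2.83 ± 0.22 with LPS (limma adjusted p = 4.71e-09) and by 1.73 ± 0.22 with CpG (adjusted p = 3.13e-05). Here the 3 unstimulated libraries that stand apart were low, at 10.5 to 15.4 TPM against 26.5 to 46.2 TPM in the other 4. Of the 8 amino acid genes, 6 lay below in all 3, against the 9.59% of all genes given above. This count has the same limit as that of the chaperone genes. Without the 3 libraries Asns differed by 2.32 with LPS and by 1.22 with CpG.

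The pair Slc7a5 and Slc3a2 encodes the light and heavy chain of the LAT1 amino acid transporter. Slc7a5 stood at 38, 45.0 and 54.8 TPM with LPS, at 25.4, 32.2 and 35.3 TPM with CpG and at 5.28, 7.76 and 11.9 TPM without stimulus, with no overlap, and differed by 2.437 ± 0.125 with LPS and by 1.91 ± 0.125 with CpG. Slc3a2, which also serves other transporters, was the most abundant of the 8, at 1354, 1902 and 2368 TPM with LPS, at 692, 785 and 936 TPM with CpG and at 448, 579 and 765 TPM without stimulus. It differed by 1.74 ± 0.10 with LPS and by 0.49 ± 0.10 with CpG, and its CpG and unstimulated ranges overlapped. In TPM the heavy chain thus exceeded the light chain in every library, the lowest Slc3a2 value being above the highest of Slc7a5.

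Mthfd2, a mitochondrial folate enzyme, and Aars, alanyl-tRNA synthetase, also rose further with LPS than with CpG. Mthfd2 stood at 180 to 273 TPM with LPS, at 121 to 163 TPM with CpG and at 51.2 to 98.1 TPM without stimulus, with no overlap, and differed by 1.735 ± 0.12 with LPS and by 1.115 ± 0.12 with CpG. Aars differed by 1.04 ± 0.09 with LPS and by 0.76 ± 0.09 with CpG, and by 0.28 ± 0.09 between LPS and CpG (limma adjusted p = 0.00976).

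Of the serine and one-carbon genes, Mthfd2 was called higher with LPS than with CpG in TPM. Phgdh, Shmt2 and Psat1 were the amino acid genes that were not. Phgdh, the enzyme of the committed step, stood at 13.2, 33.8 and 57.95 TPM with LPS, at 47.9, 62.2 and 78.1 TPM with CpG and at 14.02, 22.6 and 28.2 TPM without stimulus. LPS overlapped with both of the others, while CpG lay above all unstimulated libraries, and the differences were 0.49 ± 0.18 with LPS and 1.425 ± 0.18 with CpG. Without added protein Phgdh stood at 13.2, 25.0 and 22.9 TPM with LPS, none of them above the unstimulated range, so the LPS call rests on the libraries with protein. Between LPS and CpG it stood at -0.94 ± 0.18, lower in 7 of 7 combinations (limma adjusted p = 0.000115), but after scaling at -0.17 (adjusted p = 0.357).

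Shmt2, which passes the serine carbon on to folate in mitochondria, stood at 23.1, 37.5 and 46.2 TPM with LPS, at 54.6, 59.7 and 69.6 TPM with CpG and at 17.6, 23.6 and 26.0 TPM without stimulus. It was lower with LPS than with CpG in TPM, at -0.765 ± 0.105 with no overlap, and after scaling the difference was 0.01. Psat1, the aminotransferase of the same pathway, stood at 16.6, 19.95 and 31.7 TPM with LPS, at 19.7, 24.5 and 25.8 TPM with CpG and at 5.55, 6.60 and 9.21 TPM without stimulus. It rose by 1.49 ± 0.12 with LPS and by 1.66 ± 0.12 with CpG, and at -0.175 ± 0.12 it did not pass between LPS and CpG in TPM, while after scaling it was called higher with LPS, at 0.58. Asns, in contrast, stood at 1.103 ± 0.223 between LPS and CpG in TPM.

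The summed level of 8 macrophage genes was 11570 to 15360 TPM with LPS, 32700 to 37670 TPM with CpG and 29610 to 44050 TPM without stimulus. Most of that sum was Lyz2, with medians of 12510, 31060 and 35330 TPM in that order. The defining markers differed: medians were 578, 578 and 669 TPM for Adgre1, 329, 458 and 489 TPM for Itgam, and 192, 910 and 1118 TPM for Csf1r. The sum is therefore no measure of macrophage content. The 7 plasma cell genes summed to 485 to 680 TPM with LPS, 645 to 986 TPM with CpG and 420 to 842 TPM without stimulus. The part of either cell type in the levels of the 36 members was not tested.

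The wider pathway lists held other genes of each arm. Of 39 further ER genes tested, 13 were higher and 19 lower with LPS than without stimulus in TPM, against 14.1% and 72.3% of all genes. Scaling gave 31 higher and 2 lower, against 39.9% and 38.3%. Their median was -0.07 in TPM, where all genes stood at -0.72. With CpG 4 were higher and 4 lower in TPM, against 15.1% and 22.6% of all genes, with a median of 0.03. After scaling 9 were higher and 3 lower, against 19.1% and 18.1%. The called genes with the largest LPS differences were the oxidase Ero1lb (-1.43 ± 0.07), the protease Mbtps1 that cuts ATF6 (-1.33 ± 0.07) and the prolyl isomerase Fkbp11 (-1.04 ± 0.21). With CpG they were the oxidase Ero1l (0.42 ± 0.13), Wfs1 (-0.29 ± 0.08) and the lectin Os9 (-0.24 ± 0.05). Ero1l, which reoxidises disulfide isomerases, had a median of 63.5 TPM with LPS, 49.5 TPM with CpG and 34.6 TPM without stimulus. Between LPS and CpG, 10 of the 39 were higher and 21 lower in TPM, against 11.6% and 74.1% of all genes. After scaling 32 were higher and 3 lower, against 37.1% and 37.7%. The largest called differences in TPM were those of Ero1lb (-1.20 ± 0.07), Mbtps1 (-1.135 ± 0.07) and Sil1 (-0.75 ± 0.10).

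Of 36 further ATF4-linked genes tested, 21 were higher and 8 lower with LPS, and 28 and 4 after scaling, while 28 were higher and 1 lower with CpG. Of all genes 14.1% were higher and 72.3% lower with LPS (39.9% and 38.3% after scaling), and 15.1% and 22.6% with CpG. The medians in TPM were 0.30 with LPS and 0.54 with CpG. The stress cytokine Gdf15 rose most with LPS, by 3.87 ± 0.17, with medians of 496 TPM with LPS, 56.7 TPM with CpG and 35.9 TPM without stimulus. The cationic amino acid transporter Slc7a1 rose by 2.36 ± 0.12 with LPS and by 1.42 ± 0.12 with CpG, and the cystine transporter Slc7a11 by 2.06 ± 0.12 with LPS. With CpG the proline synthesis gene Aldh18a1 rose by 0.94 ± 0.13 and the mitochondrial folate gene Mthfd1l by 0.87 ± 0.07. Between LPS and CpG, 11 were higher and 19 lower in TPM, against 11.6% and 74.1% of all genes. After scaling 26 were higher and 7 lower, against 37.1% and 37.7%. The glutamine transporter Slc1a5 stood lower with LPS than with CpG, at -2.12 ± 0.08, with medians of 12.5 TPM with LPS and 56.6 TPM with CpG. Gdf15 and Eif2ak2 stood higher with LPS than with CpG, at 3.09 ± 0.17 and 1.86 ± 0.20.

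In stimulated cells, 8 of 13 chaperone genes were lower in the libraries labelled Lum-/- than in WT. Across 4 matched pairs (LPS and CpG, each without and with lumican), limma called 9 of 36 members lower and 1 higher at an adjusted p under 0.05, against 7.89% and 3.32% of 11528 genes. Of the 9, 8 were chaperone genes: Calr, Pdia3, Pdia4, Pdia6, Hsp90b1, Sdf2l1, Creld2 and Hyou1, and 12 of the 13 chaperone genes were lower in all 4 pairs, against 23.4% of all genes. The median over the 13 was -0.18, against -0.065 for all genes. After scaling 4 members were called lower, Calr, Pdia4, Creld2 and Phgdh, against 3.73% of genes, and in a fit of all 21 libraries only Sdf2l1 was. Of 39 further ER genes, 10 were lower and 0 higher in TPM, and 5 lower after scaling.

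Calr stood at 617 TPM in the LPS library labelled Lum-/- and at 824 TPM in WT, and with lumican and LPS at 631 TPM in the label and 852 TPM in WT. With CpG it stood at 794 TPM in the label and 971 TPM in WT, and with lumican and CpG at 781 TPM in the label and 967 TPM in WT. The difference was -0.365 ± 0.04 (limma adjusted p = 0.000876), and the pairs ranged from -0.43 to -0.29. Pdia4 stood at 46.2 (LPS), 51.6 (lumican and LPS), 61.2 (CpG) and 62.6 TPM (lumican and CpG) in the label, against 64.7, 70.2, 70.6 and 74.7 TPM in WT. Its difference was -0.34 ± 0.06 (adjusted p = 0.00565). Hspa5 did not pass, at -0.04, with 1539 TPM in the label and 1621 TPM in WT with LPS, and 1542 TPM in the label and 1476 TPM in WT with lumican and LPS.

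The count of 9 fell to 4 when the Lum-/- library with lumican and LPS or the WT library with lumican and LPS was left out, and Hsp90b1 lost its call in 12 of 14 such fits. One absorbance ratio recorded for RNA purity was 0.2 in the Lum-/- library with lumican and LPS and 0.13 in that with CpG. Every other library was at 1.21 to 4.91. Another such ratio was 2.13 and 2.17 in these libraries, within the range of the rest (2.07 to 2.2). The part of RNA purity in the differences with the Lum-/- label was not tested. Other cell types differed along with the label. The plasma cell sum was 546 TPM with LPS and 485 TPM with lumican and LPS in the libraries labelled Lum-/-, against 602 and 609 TPM in WT, and with CpG 683 and 645 TPM against 865 and 934 TPM. Mast cell genes summed to 7.58 to 10.6 TPM in those 4 libraries labelled Lum-/- and to 64.6 to 115 TPM in the 4 of WT. The B cell sum was 404 and 386 TPM against 418 and 522 TPM with LPS, and 557 and 503 TPM against 654 and 769 TPM with CpG, in the Lum-/- label against WT. The part of any of these in the chaperone difference was not tested.

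The other members called with the Lum-/- label were Ddit4, which was higher, and Phgdh, which was lower like the chaperones. Ddit4 stood at 29.0 TPM with LPS, 19.04 TPM with lumican and LPS, 14.4 TPM with CpG and 14.2 TPM with lumican and CpG, against 13.1, 12.7, 8.63 and 9.90 TPM in WT. It was higher in 4 of 4 pairs, by 0.68 ± 0.10 (limma adjusted p = 0.0041), and it was still called after scaling, with all 21 libraries and with a minimum of 5 TPM. Phgdh was lower in 4 of 4 pairs, by -0.58 ± 0.12 (adjusted p = 0.0175), for example at 13.2 TPM in the label and 22.9 TPM in WT with LPS, and this call was lost when the Lum-/- library with LPS, the Lum-/- library with lumican and LPS, or the WT library with lumican and LPS was left out.

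**Figure D4:**
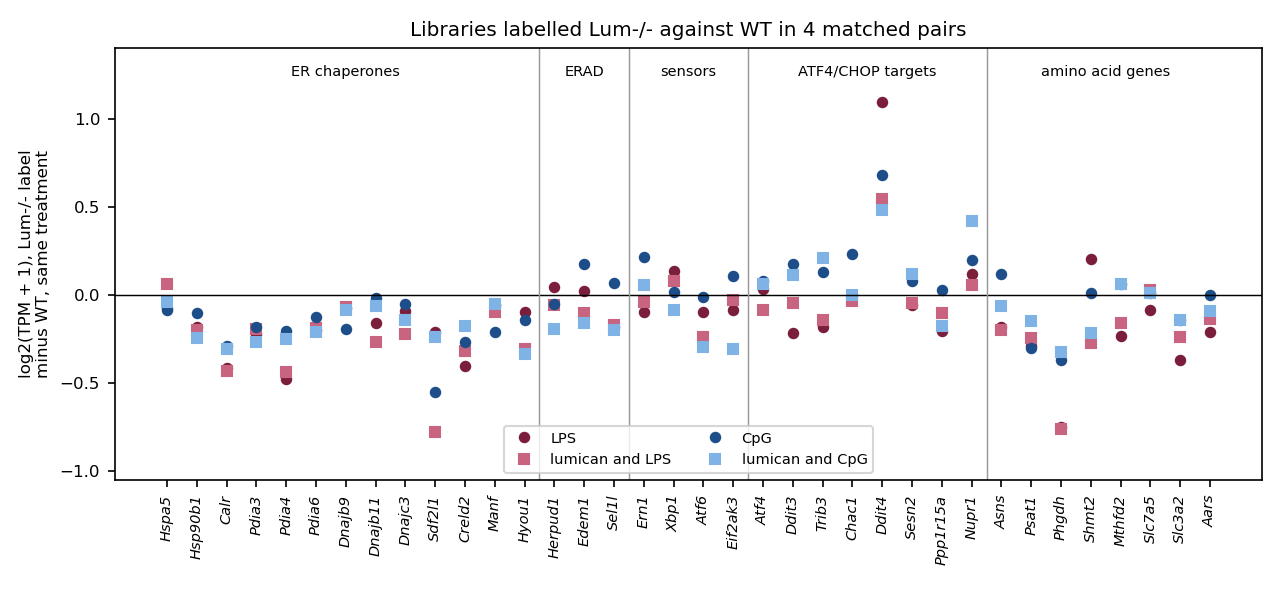
Log2(TPM + 1) in the libraries labelled Lum-/- minus WT under the same treatment, for 36 members and 4 matched pairs (circles without and squares with lumican, red for LPS and blue for CpG). Points below 0 are lower in the Lum-/- label. Apart from Hspa5, every chaperone gene is below 0 in all 4 pairs, and Ddit4 is above 0 in all 4.

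In the libraries labelled Bgn-/-, limma called 0 of 36 members higher and 0 lower against WT in stimulated cells, against 0.468% and 1.08% of genes. At an unadjusted p under 0.05 there were 5 members, against 13.3% of genes. The median member stood at 0.02, as did the median gene. Both labels were compared with the same WT libraries in part.

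What did differ was the step between LPS and CpG. Asns stood at 198 TPM with LPS and 230 TPM with biglycan and LPS in the libraries labelled Bgn-/-, against 146 and 173 TPM in WT, but at 65.4 TPM with CpG and 57.4 TPM with biglycan and CpG, against 82.2 and 87.2 TPM in WT. The excess of LPS over CpG was thus 0.90 ± 0.10 larger in the Bgn-/- label than in WT on the log2 scale (limma interaction, adjusted p = 0.0137), and Asns was the member called, against 0.321% of genes. All 8 amino acid genes had a positive interaction, with a median of 0.54 against -0.02 for all genes, but 7 of them did not pass. At an unadjusted p under 0.05 there were 13 of 36 members, these 8 included, against 11.3% of all genes. Trib3 was at 0.93 ± 0.15 and Mthfd2 at 0.54 ± 0.08, and neither passed (adjusted p = 0.0581 and 0.0555). The Asns call was lost without the Bgn-/- library with LPS, the Bgn-/- library with biglycan and LPS or the WT library with biglycan and LPS. With genes of at least 5 TPM, the call also took in Trib3, Mthfd2 and Slc3a2, whereas with no filter or with all 21 libraries 0 members were called, Asns included. For the Lum-/- label the same interaction called 0 of 36 members, against 0.0% of genes, and 2 members had an unadjusted p under 0.05, against 8.61%.

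Few members were called with added lumican or added biglycan. With lumican, 1 of 36 was called in stimulated cells, against 0.286% of genes, and with biglycan 0, against 0.0694%. At an unadjusted p under 0.05 there were 7 members with lumican and 5 with biglycan, against 18.2% and 16.7% of genes. The 1 member was Phgdh, higher with lumican by 0.79 ± 0.12 (limma adjusted p = 0.0433). It stood at 57.95 TPM with lumican and LPS and at 22.9 TPM with LPS in WT, and at 33.8 and 13.2 TPM in the Lum-/- label. With CpG the values were 78.1 and 62.2 TPM in WT and 62.3 and 47.9 TPM in the Lum-/- label, so all 4 pairs were higher, and the LPS pairs by more. The call was lost when any of 11 of the 14 libraries was left out.

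Split by ligand, a choice made after the data were seen, lumican raised Phgdh by 1.17 ± 0.17 (limma adjusted p = 0.024) and Ppp1r15a by 0.43 ± 0.09 (adjusted p = 0.0492) in the LPS pairs, where 1.97% of genes were called. In the CpG pairs 0 members were called, against 0.00867% of genes, and 3 had an unadjusted p under 0.05, against 4.93%. With biglycan 0 members were called in the LPS pairs, against 0.052%, and 0 in the CpG pairs, against 0.00867%, with 5 (LPS) and 2 (CpG) at an unadjusted p under 0.05, against 17.6% and 7.39%. With LPS, Phgdh stood at 41.7 TPM with biglycan and 22.9 TPM without in WT, and at 39.3 and 25.0 TPM in the Bgn-/- label. The lumican and biglycan comparisons share the WT libraries without protein. Shmt2 was also higher with protein in all 4 LPS pairs, for example at 46.2 TPM with lumican and 23.1 TPM without in WT, but at 0.41 ± 0.11 for lumican it did not pass (adjusted p = 0.115). Also higher in all 4 LPS pairs were Asns, Atf4, Calr, Dnajb9, Eif2ak3, Ern1, Herpud1, Hyou1, Mthfd2, Ppp1r15a, Sel1l, Slc3a2, Slc7a5 and Trib3. Manf, Pdia3 and Pdia6 were lower in all 4. The share of all genes with such a pattern was not computed.

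**Figure D5:**
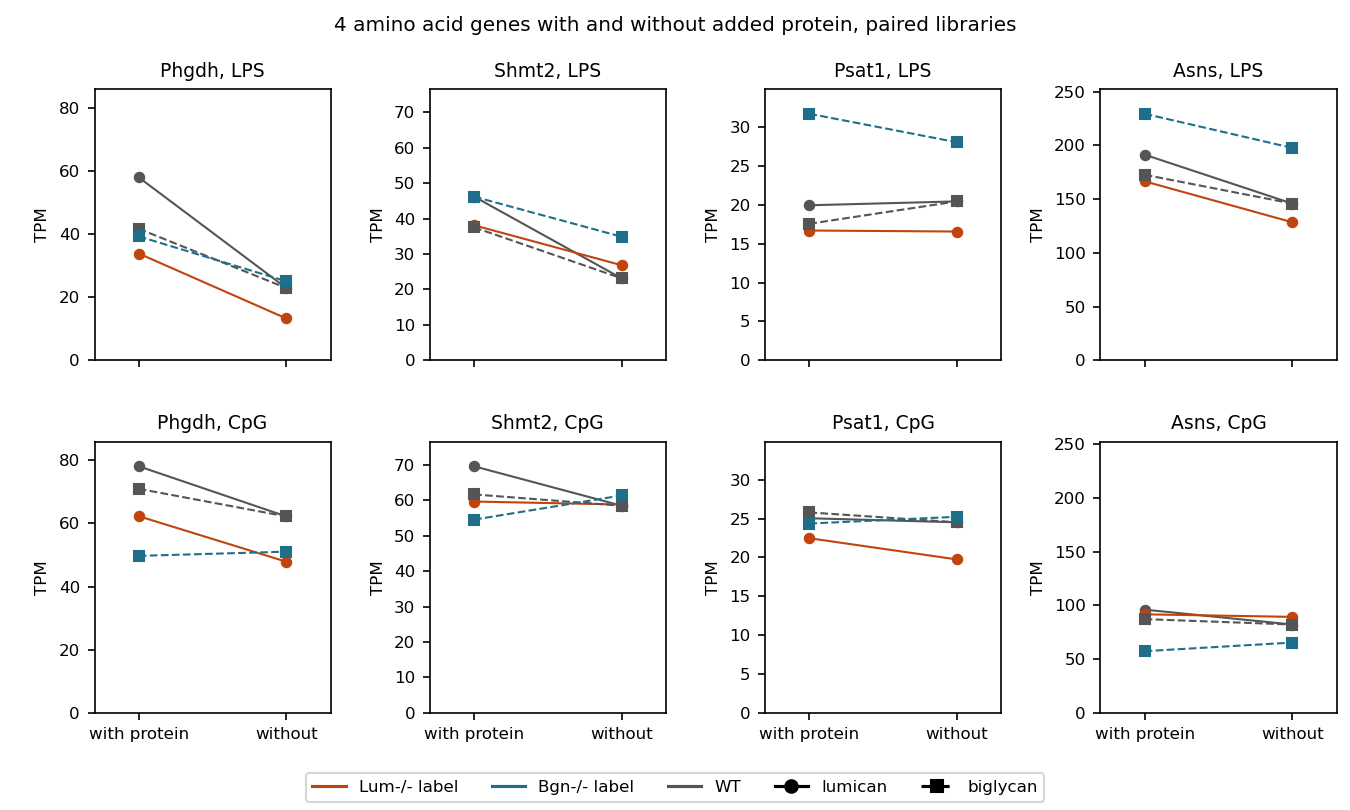
TPM of Phgdh, Shmt2, Psat1 and Asns with protein (left) and without (right) in matched libraries, with LPS in the upper row and CpG in the lower. Lines join a pair; circles are lumican, squares biglycan, and colours the genotype label. With LPS the Phgdh lines fall from left to right in all 4 pairs, which stand at 57.95 TPM with lumican and 22.9 TPM without in WT, while the CpG lines are flatter.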

How the data were processed

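Per the labels' protocols, RNA of CD11b+ peritoneal cells was made into stranded TruSeq libraries and sequenced on an Illumina HiSeq. Per the submitters' processing notes, bcl2fastq 1.8.4, kallisto 0.44.0 and the build GRCm38 were used. The authors deposited TPM per transcript for 21 libraries, each summing to 1000000. TPM hold no counts, so depth was estimated and no count model was run. TPM were summed per gene with Python 3.11.15 and pandas 2.3.3. Of 89562 transcripts 6774 had no gene name; 5423 were matched by identifier and 1351 left out. No column of another sample was found (0).

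Genes averaging 1 TPM or more over the libraries were fitted as log2(TPM + 1) with limma 3.58.1 in R 4.3.3 (trended eBayes, two-sided, Benjamini-Hochberg over all genes tested, threshold 0.05); fold differences understate the change of low genes. The stimulus fit used 21 libraries with the 7 combinations as a block, and the genotype and protein fit the 14 stimulated libraries. The stimulus fit was tested on simulated data, for LPS against no stimulus only. There few genes were shifted, whereas in the data most were called with LPS. The genotype, protein and interaction fits were not tested in this way. Alternatives were other pseudocounts (0.1, 5), filters (5 TPM, none), median-of-ratios scaling, the most abundant transcript, fewer libraries, no block and each library left out. All 36 members may be named; from 2 wider lists, the 3 called genes of at least 5 TPM with the largest difference per stimulus comparison were. Members and lists were chosen with earlier results of these data known.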

Additional observations from a re-analysis of the deposited data

Results flagged for a closer look

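Among 108 sets of 7 libraries (36 members at 3 stimuli), 1 held a library far from the rest by Dixon's criterion, where chance alone flags about 1 in 20. Ddit4 stood at 29.0 TPM in the LPS library labelled Lum-/-, and the next highest LPS library was at 19.04 TPM. The step between LPS and CpG in Asns was 0.90 larger (log2) in the libraries labelled Bgn-/- than in WT by the limma interaction, which leaving out 1 of 3 libraries undid.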

How the results depend on the processing

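After median-of-ratios scaling the count of members lower with LPS than without stimulus was 0, and LPS against CpG gave 29 higher and 0 lower, with or without the 2 shallow libraries, the last a choice made after the data were seen. Log2 differences that turned positive after scaling were, for LPS against no stimulus, Calr 0.557, Pdia3 0.468, Pdia4 0.593, Dnajb11 0.417, Dnajc3 0.575, Sel1l 0.332, Ern1 0.289, Atf6 0.244, Nupr1 0.521, and without the 2 libraries as well Calr 0.679, Pdia3 0.674, Pdia4 0.847, Dnajb11 0.474, Dnajc3 0.547, Sel1l 0.322, Ern1 0.112, Atf6 0.093, Nupr1 0.35. For LPS against CpG they were Calr 0.514, Pdia3 0.531, Pdia4 0.554, Dnajb11 0.333, Dnajc3 0.456, Hyou1 0.523, Sel1l 0.269, Ern1 0.112, Atf6 0.108, Eif2ak3 0.126, Ddit3 0.695, Nupr1 0.099, Psat1 0.581, Shmt2 0.006, and without the 2 libraries Calr 0.494, Pdia3 0.51, Pdia4 0.534, Dnajb11 0.313, Dnajc3 0.435, Hyou1 0.503, Sel1l 0.249, Ern1 0.092, Atf6 0.088, Eif2ak3 0.107, Ddit3 0.674, Nupr1 0.079, Psat1 0.561. For CpG against no stimulus, scaling without the 2 libraries gave Calr 0.185, Pdia3 0.164, Pdia4 0.313, leaving out the 2 gave Pdia4 0.284 and leaving out the 3 gave Calr 0.234, Pdia3 0.191, Pdia4 0.364; leaving out the 3 also gave Pdia4 0.141 for LPS. With the most abundant transcript alone, Edem1 stood at -0.16 for LPS against no stimulus and -0.168 for LPS against CpG, and in cells without protein Ppp1r15a stood at -0.001 for LPS. A pseudocount of 5 or the most abundant transcript gave 1 member lower with CpG. The 9 members lower in the Lum-/- label became 4 after scaling and 1 with all 21 libraries. Added lumican called 0 with no filter, the most abundant transcript, all 21 libraries or the CpG pairs, and 2 in the LPS pairs. The interaction for the Bgn-/- label called 4 at 5 TPM or more and 0 with no filter or all 21 libraries. The causes were not tested. With 1 library left out, the counts ranged from 21 to 24 higher and 10 to 10 lower (LPS), 19 to 20 and 0 to 1 (CpG), 18 to 19 and 11 to 13 (LPS against CpG), 1 to 1 and 4 to 9 (Lum-/- label), 0 to 1 for lumican, and 0 to 3 for the Bgn-/- interaction. The labels carry no replicate numbers, so libraries could not be paired by preparation. They were matched by genotype and protein alone, and without that block LPS gave 21 higher and 10 lower and CpG 19 and 0. TPM hold no counts, so no counting interval was given for low genes such as Chac1.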
